A study of Mus musculus with 9 samples.

Results

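Immediate early genes are switched on within minutes of a stimulus, without new protein synthesis, and in neurons they follow synaptic activity. A list of 37 such genes and of genes regulated by activity was taken from the hippocampal transcriptome of Nestin;BrafKE/+ mice, choosing every row of the deposited table whose symbol was on the list and whose mean over the libraries was at least 10. All 37 symbols were found and passed this minimum, out of 18275 genes in the table and 16196 genes at or above it. The question was whether these transcripts, many of them targets of the kinase ERK, differ in level between the genotypes and vary together from one animal to another.

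RNA from the hippocampus of adult male mice of strain C57BL/6N was sequenced, with 1 library per animal. The 4 Nestin;BrafKE/+ mice carried the K499E allele of Braf next to a wild-type allele, and the 5 Braf+/+ mice were wild-type littermates. The mutant allele is silent until Cre recombinase removes a floxed cassette, and Nestin-Cre does so in neural stem cells, so that neurons and glia descending from them carry it. Whether the control animals carried Nestin-Cre is not given in the sources used here. The brains were removed after a brief anaesthesia, and the labels name no task or stimulus before it. By their names the libraries form 3 series (A to C), whose meaning the labels do not give. Of the mutant libraries, replicate 1 was in series A, replicates 2 and 3 in B and replicate 4 in C. Of the controls, replicates 1 to 3 were in A, replicate 4 in B and replicate 5 in C.

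BRAF is a kinase at the head of a cascade in which MEK activates ERK. ERK and its partner kinases of the RSK and MSK families phosphorylate ternary complex factors bound beside SRF at serum response elements, and CREB at cAMP response elements, and so start transcription of Fos, Egr1 and their relatives. In the hippocampus the same genes respond to glutamate receptors and calcium entry, and Fos, Arc, Egr1 and Npas4 are widely used to mark neurons that were recently active. Some products, such as FOS and EGR1, are transcription factors that start a later wave of expression, whereas others, such as ARC and HOMER1, act directly at the synapse.

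The sequence in front of some of these genes is shown because cAMP response elements and EGR motifs are known control sites of the class, for Fos and Inhba, which were lower in the mutant, and for Fosb and Junb, which did not pass the test. These windows lie before the RefSeq start of Fos (chr12:85520414-85520657, plus strand), Fosb (chr7:19043977-19044220, minus strand), Junb (chr8:85705378-85705627, minus strand) and Inhba (chr13:16186186-16186372, plus strand). The letters come from a RefSeq promoter table of the earlier build GRCm38.p6, and their positions from an exact match of the letters in GRCm39. Windows end at the last base before an annotated exon. Capitals mark a match to the core of the cAMP response element (TGACG, on either strand) or to the binding motif of the EGR factors (GCGNGGGCG, on either strand).
Fos: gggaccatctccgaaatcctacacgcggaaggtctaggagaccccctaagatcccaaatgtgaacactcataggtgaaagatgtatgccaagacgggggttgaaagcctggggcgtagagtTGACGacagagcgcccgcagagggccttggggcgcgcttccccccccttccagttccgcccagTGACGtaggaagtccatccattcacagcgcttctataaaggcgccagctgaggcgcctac
Fosb: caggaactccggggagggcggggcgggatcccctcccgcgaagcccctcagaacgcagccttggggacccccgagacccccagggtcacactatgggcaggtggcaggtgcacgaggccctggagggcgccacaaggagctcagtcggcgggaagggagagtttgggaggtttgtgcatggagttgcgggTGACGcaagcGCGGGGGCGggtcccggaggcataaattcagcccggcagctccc
Junb: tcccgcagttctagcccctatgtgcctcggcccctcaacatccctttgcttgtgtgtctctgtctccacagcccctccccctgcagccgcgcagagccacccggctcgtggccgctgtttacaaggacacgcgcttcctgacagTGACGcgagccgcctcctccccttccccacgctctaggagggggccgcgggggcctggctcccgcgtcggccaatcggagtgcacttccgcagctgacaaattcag
Inhba: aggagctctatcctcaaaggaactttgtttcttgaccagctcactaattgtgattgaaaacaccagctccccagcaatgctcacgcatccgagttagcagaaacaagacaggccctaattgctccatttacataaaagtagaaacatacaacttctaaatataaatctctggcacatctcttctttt

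Fos had 2 of the cores, at -129 and -66 from its RefSeq start. Fosb had a core at -60 next to an EGR motif at -50, Junb had a core at -106, and the Inhba window held neither. Of the 37 members, 27 had a window of 250 bases before the start in the RefSeq table. The core was held by 16 of these (59.3%), against 17.9% of 27025 windows, 1 a gene. For members the window nearest the canonical start in Gencode was taken, but for all windows the first listed. The shares here and below thus rest on unlike choices. The RefSeq start used lay 2547 bases from the canonical start for Inhba and 7769 bases for Nr4a2. Only 3 of the 7 called members had a window, all of them lower in the mutant (Fos, Inhba and Nr4a2), so the counts of motifs say nothing of the 4 that were higher. The EGR motif was found in 9 of the 27 (33.3%) and in 4.65% of all windows. The complete cAMP response element TGACGTCA, in which the core occurs on both strands, was present in 3 of the 27 (11.1%, Arl4d, Btg2 and Maff) and in 1.62% of all windows. The serum response element motif was found in Egr2 alone among the 27 and in 1.40% of all windows. Sites farther than 250 bases from the start were not searched, and Egr1 had no window. The count therefore cannot tell whether Fos or Egr1 has such an element. No member window held the AP-1 motif TGANTCA, found in 6.87% of all windows, or the NR4A motif AAAGGTCA, found in 1.31%. A match describes letters in this window and no binding was measured.

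Library totals of the deposited normalised counts ran from 19551300 to 20091500, and the read depth behind them is unknown. The K499E change itself cannot be seen in values per gene. Markers of other cells were measured beside the members, since in bulk tissue a change in the number of cells of a type cannot be told apart from a change of RNA per cell. Over all genes tested, 1.52% were higher and 1.36% lower in Nestin;BrafKE/+ at a limma adjusted p under 0.05. An unadjusted p under 0.05 was found for 18.5%, and the counts of the short lists below stand beside these shares. Of 8 oligodendrocyte markers 4 were higher in Nestin;BrafKE/+, with a summed level of 126834 to 136901 against 92690 to 112210 in Braf+/+. Of 8 astrocyte markers 3 were higher, with sums of 110924 to 124777 against 104157 to 117892. Of the dentate gyrus markers 1 of 8 was higher and 2 were lower, 2 of 6 CA1 markers were higher, and 1 of 8 markers of hippocampal excitatory neurons, Neurod2, was lower. The choroid plexus list reached 392871 in Braf+/+ replicate 2, against 1516 to 24631 in the mutant libraries. Its mean log2 level, relative to each gene's mean over the libraries, was 2.81 in Braf+/+ replicate 2 and 1.98 in Braf+/+ replicate 4, against -2.42 to 0.25 in the other libraries, and 0 of its 8 genes passed the test (limma; 3 had an unadjusted p under 0.05). The deposited values hold no 0 in any library, so the absence of a cell type cannot be read from them. The 8 genes of the heat shock list, which respond to tissue stress, gave 0 calls (limma; 1 with an unadjusted p under 0.05). Of 12 glucocorticoid response genes Mt2 was higher, and of 6 meninges genes Col1a1. The lists of CA3 (6 genes), microglia (8), endothelium (8), blood (5) and thalamus (6) gave 0 calls in limma, with 1, 2, 1, 4 and 1 genes at an unadjusted p under 0.05. By mean log2 level, as for choroid plexus, CA3 was lower without overlap, with -0.28 to -0.13 in the mutant and -0.02 to 0.30 in the control libraries. Higher without overlap were CA1 (0.08 to 0.13 against -0.15 to -0.03), astrocytes (0.08 to 0.21 against -0.16 to -0.05) and oligodendrocytes (0.11 to 0.29 against -0.33 to -0.0021). For the other marker lists the genotypes overlapped. The part of these cell types in the results below was not tested.

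Arc, Nptx2, Trib1 and Phlda1 were higher in the hippocampus of Nestin;BrafKE/+ mice, and Inhba, Fos and Nr4a2 were lower. These 7 of 37 members (18.9%) had an adjusted p under 0.05, against 2.88% of all genes tested (limma with Benjamini-Hochberg adjustment). The members were chosen with earlier results of these data known, so the comparison of these shares is not a test. The 4 higher members compare with 1.52% of all genes that were higher, and the 3 lower members with 1.36% that were lower. Log2 fold changes of all members are shown in the plot of fold changes. Positive and negative values were nearly equal in number, 18 and 19, and their median was -0.0024 on the log2 scale, against 0.00033 for all genes tested. The median absolute log2 fold change was 0.14 for the members and 0.12 for all genes. The values of the genotypes did not overlap for 11 members, with all 4 mutant libraries above the 5 controls for 4 of them and below for 7, against 15.7% of all genes tested (7.62% above and 8.13% below). Besides the called genes, the members with no overlap were Fosl2, Btg2, Nr4a3 and Maff, all with mutant values below the controls. An unadjusted p under 0.05 was found for 11 members and for 18.5% of all genes.

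**Figure D1:**
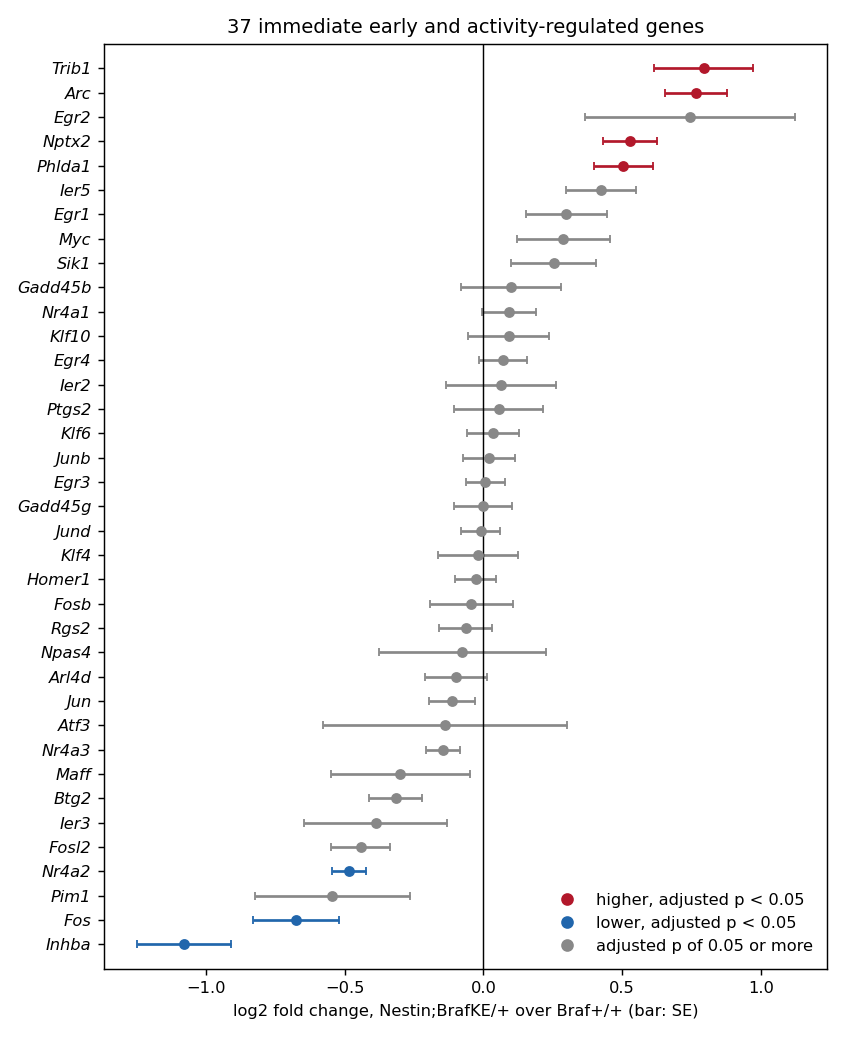
Log2 fold change, Nestin;BrafKE/+ over Braf+/+, of the 37 immediate early and activity-regulated genes (x axis, log2 units; bars are the standard error of the limma fit; 4 mutant and 5 control libraries). The 4 members in red and the 3 in blue had an adjusted p under 0.05, and the widely used activity markers Egr1, Junb, Npas4, Nr4a1, Fosb and Homer1 are in grey.

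Normalised counts are given below for the 4 mutant libraries in the order of replicates 1 to 4 and for the 5 control libraries in the order of replicates 1 to 5, and positions are those of Gencode on GRCm39. The AP-1 factors bind DNA as dimers of a FOS and a JUN protein. Of the 8 members with a basic leucine zipper (Fos, Fosb, Fosl2, Jun, Junb, Jund, Maff and Atf3), 1 was lower, 0 were higher and 7 did not pass (limma; 2 had an unadjusted p under 0.05). Fos (ENSMUSG00000021250, chr12:85520658-85524047), the founding member of the class, had 79.3, 87.4, 70.9 and 67.8 in the mutant libraries and 118, 108, 136, 113 and 136 in the control libraries. Every mutant library was below every control, and the gap between the groups was larger than the SD of either. The means were 76.4 ± 8.84 (SD, n = 4) and 122 ± 13.1 (SD, n = 5), and Fos fell by 0.67 on the log2 scale (SE 0.15, limma adjusted p = 0.0457). A two-sided exact permutation test gave p = 0.00794 when genotypes were permuted over all 9 libraries and p = 0.0417 when they were permuted within series. Both are the smallest values possible. Genotypes without overlap, which allow such a small p, were found for 15.7% of all genes tested. The authors had corrected the values for batches beforehand, and neither this test nor limma allows for that. The call for Fos stood close to the threshold. It held without Nestin;BrafKE/+ replicate 2 (limma adjusted p = 0.0472) and failed without any other single library, with values from 0.0576 without Braf+/+ replicate 2 to 0.143 without Nestin;BrafKE/+ replicate 1.

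Fosl2, which encodes the FOS relative FRA2, had 657, 727, 721 and 712 in the mutant libraries and 815, 1190.2, 964, 904 and 945 in the controls. The genotypes did not overlap here either, and the control values were spread more widely than the mutant ones. Its log2 fold change was -0.44 (SE 0.11), with an adjusted p of 0.0542 in limma, which does not pass. It passed in 4 of 12 other settings and without Braf+/+ replicate 1 (limma adjusted p = 0.0394) or 2 (0.0339). Fosb, another partner of the JUN proteins, had 158, 154, 159.7 and 129 in the mutant and 178, 129, 151, 139.6 and 179 in the control libraries, with groups that overlapped almost completely. The log2 fold change of Fosb was -0.04 (SE 0.15, limma adjusted p = 0.911). For Junb, a JUN protein induced by activity, the values were 795, 774, 779.7 and 712 against 848, 638, 762, 731 and 811, with the mutant libraries inside the control range. Junb had a log2 fold change of 0.02 (SE 0.09, limma adjusted p = 0.939). The difference between Fos and its paralog Fosb was not itself tested. The log2 fold changes of Jun, Jund, Maff and Atf3 were -0.11, -0.01, -0.30 and -0.14, and none of the 4 passed in limma.

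The EGR proteins are zinc finger factors, and Egr1 is used as an activity marker beside Fos. All 4 members had a positive log2 fold change, from 0.0069 to 0.74, and 0 passed the test (limma; 0 with an unadjusted p under 0.05). Egr1 had 2821, 1724, 2522 and 2097 in the mutant libraries and 1689, 1611, 1795, 2137 and 1967 in the controls. Nestin;BrafKE/+ replicates 1 and 3 stood above all controls, while replicate 2 lay among the lowest controls and replicate 4 just under the highest. Its means were 2291 ± 481 (SD, n = 4) and 1839.8 ± 213 (SD, n = 5), with a log2 fold change of 0.30 (SE 0.15, limma adjusted p = 0.308). Egr2 showed the same order among the mutant libraries, with 59.2, 18.9, 58.9 and 41.9 in the mutant libraries and 20.9, 20.0, 22.9, 36.2 and 23.0 in the controls. Nestin;BrafKE/+ replicate 2 had the lowest value of all 9 libraries, and the other mutant libraries lay above all controls. The log2 fold change of Egr2 was 0.74 with an SE of 0.38 (limma adjusted p = 0.328), so that a 1.82-fold ratio of the means could not be told from the spread. It ranged from 0.30 without Nestin;BrafKE/+ replicate 1 to 1.20 without replicate 2. Egr3 and Egr4 had log2 fold changes of 0.01 and 0.07.

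NR4A proteins are orphan nuclear receptors whose transcripts respond within the hour to activity and to cAMP. Nr4a2 (ENSMUSG00000026826, chr2:56996842-57014331), also known as NURR1, had 919.6, 889, 869.6 and 893 in the mutant libraries and 1154, 1237, 1323, 1289 and 1250.1 in the controls. The mutant libraries lay within a narrow band, and even the lowest control was well above it. The means were 893 ± 20.6 (SD, n = 4) and 1250.5 ± 63.8 (SD, n = 5), and Nr4a2 fell by 0.48 on the log2 scale (SE 0.06, limma adjusted p = 0.00425). Among the 7 called members, it was the only one that passed without each of the 9 libraries in turn, with a highest adjusted p of 0.0409 in limma, without Braf+/+ replicate 4. Its relatives differed less. Nr4a3 had 1639, 1617, 1523 and 1694 in the mutant and 1723, 1841, 1775, 1901 and 1708 in the control libraries, again without overlap, and a log2 fold change of -0.15 (SE 0.06, limma adjusted p = 0.225). Nr4a1, or NUR77, had 857, 695, 781 and 794 in the mutant and 725, 628, 781, 819.5 and 719.6 in the control libraries, with widely overlapping groups and a log2 fold change of 0.09 (SE 0.10, limma adjusted p = 0.663). In Gencode vM39 a predicted gene model overlaps Nr4a1 on the same strand, so the assignment of its reads may be uncertain. Whether the annotation used to quantify the reads held this model was not checked.

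The other transcription factors were Npas4, Klf4, Klf6, Klf10 and Myc, and 0 of the 5 passed (limma; 0 with an unadjusted p under 0.05). Npas4 is induced by calcium entry in neurons and controls inhibitory synapses. It had 142, 118, 143 and 85.7 in the mutant libraries and 209.7, 92.0, 87.6, 107 and 175 in the controls. The controls alone covered a 2.39-fold range, with Braf+/+ replicates 1 and 5 far above the others, and every mutant library but replicate 4 fell inside that range. Its log2 fold change was -0.08 (SE 0.30, limma adjusted p = 0.925). Of the others, Myc had the highest log2 fold change, 0.29 (SE 0.17, limma adjusted p = 0.401), and the 3 KLF factors lay between -0.02 and 0.09.

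Of the 5 synaptic and secreted effectors 2 were higher, 1 was lower and 2 did not pass. Arc (ENSMUSG00000022602, chr15:74540932-74544419), whose protein drives removal of AMPA receptors from the synapse, had 3041, 2362, 2851 and 2273 in the mutant libraries and 1525, 1311, 1550.1, 1556 and 1765 in the controls. The lowest mutant library exceeded the highest control, and replicates 1 and 3 were the highest of the mutant libraries. The means were 2632 ± 373 (SD, n = 4) and 1542 ± 161 (SD, n = 5), a ratio of 1.71, and Arc rose by 0.77 on the log2 scale (SE 0.11, limma adjusted p = 0.00707). Nptx2 (ENSMUSG00000059991, chr5:144482692-144500381), a secreted pentraxin that clusters AMPA receptors, had 669.6, 702, 679.9 and 614 in the mutant and 481, 399, 507, 428 and 500.4 in the control libraries. All 4 mutant libraries were above all 5 controls. Nptx2 rose by 0.53 on the log2 scale (SE 0.10, limma adjusted p = 0.0187), with group means of 667 ± 37.5 (SD, n = 4) and 463 ± 47.3 (SD, n = 5).

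Inhba (ENSMUSG00000041324, chr13:16186373-16206206) encodes the subunit of activin A, a secreted ligand of the TGF-beta family that neuronal activity induces. It had 102, 109, 73.9 and 75.8 in the mutant libraries and 187, 164, 190.2, 186 and 222 in the controls. The mutant values split into a higher pair, replicates 1 and 2, and a lower pair, replicates 3 and 4, and both lay far below the controls. Inhba fell by 1.08 on the log2 scale (SE 0.17, limma adjusted p = 0.00976), with group means of 90.3 ± 18.1 (SD, n = 4) and 189.8 ± 20.8 (SD, n = 5), and had the largest absolute change among the members. Homer1, a scaffold of metabotropic glutamate receptors, had 2894, 2390.2, 2651 and 2724 in the mutant and 2613, 2564, 2719, 3024 and 2645 in the control libraries, with groups that overlapped and a log2 fold change of -0.03 (SE 0.07, limma adjusted p = 0.883). Values per gene do not separate its short activity-induced form, Homer1a, from the long forms. Ptgs2, the inducible cyclooxygenase, had a log2 fold change of 0.06 (SE 0.16, limma adjusted p = 0.889).

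**Figure D2:**
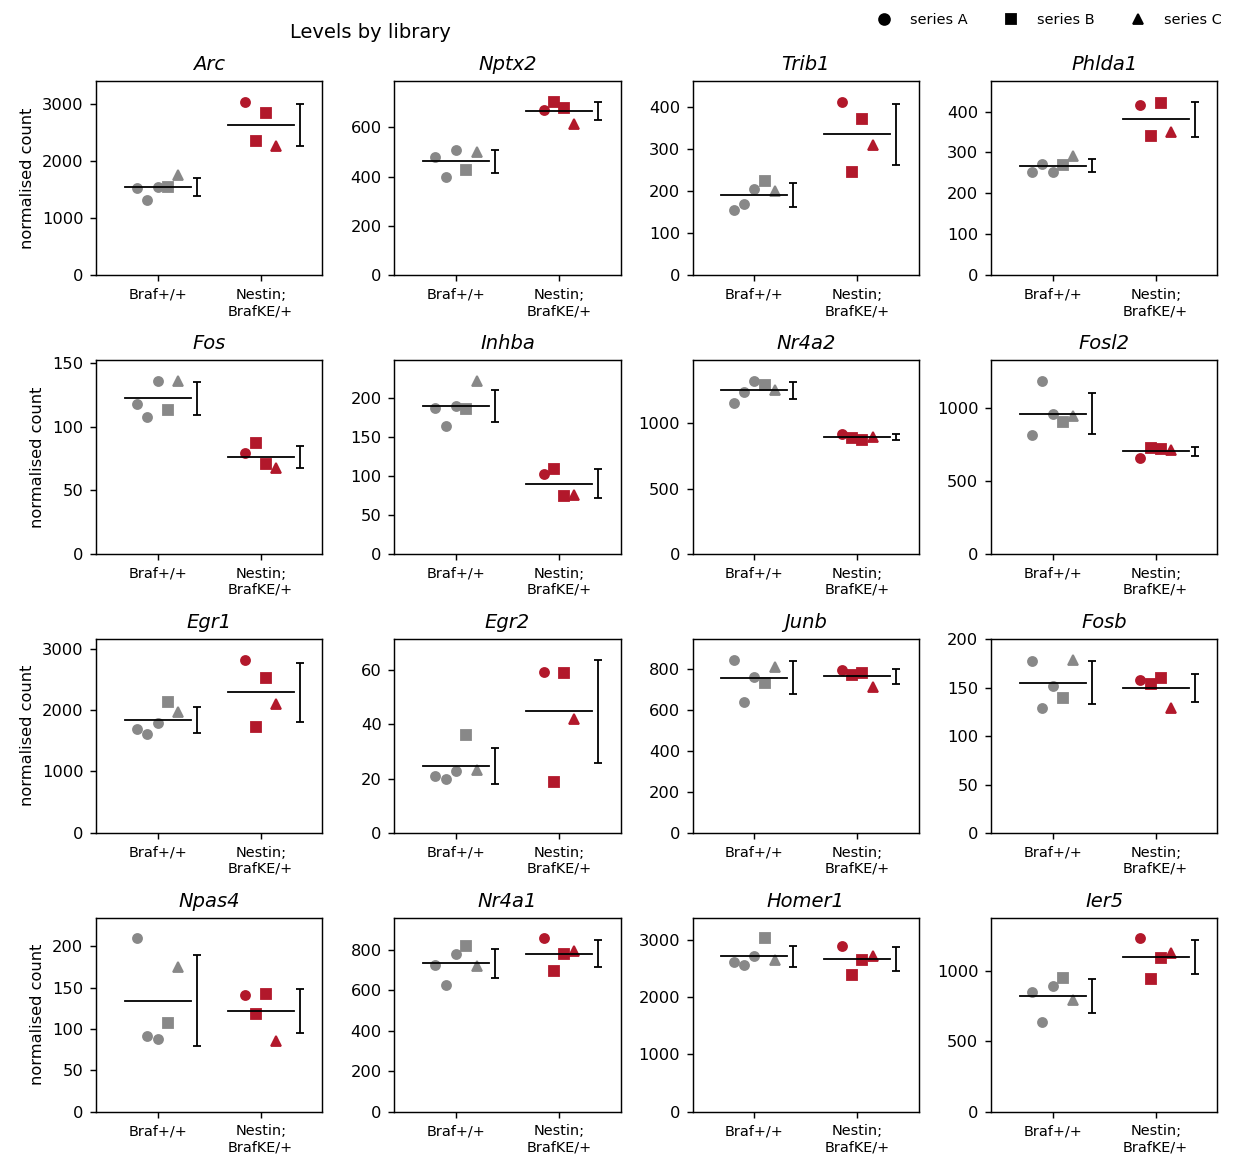
Normalised counts (y axis, linear from 0) of 16 members in the 5 Braf+/+ libraries (grey) and the 4 Nestin;BrafKE/+ libraries (red); the line is the group mean, the bar beside it 1 SD, and the symbol gives the series of the library name. The genotypes do not overlap in the upper 2 rows, whereas they overlap in the other 8 genes, in Ier5 by a single mutant library.

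Of 6 signalling and feedback proteins, Trib1 and Phlda1 were higher and 4 did not pass. Trib1 (ENSMUSG00000032501, chr15:59520147-59528948), a pseudokinase that feeds substrates to the ubiquitin ligase COP1 and binds MEK, had 413, 246, 371 and 310.1 in the mutant libraries and 155, 170.0, 204, 224 and 201 in the controls. Every mutant library was above every control, replicate 2 only just. Trib1 rose by 0.79 on the log2 scale (SE 0.18, limma adjusted p = 0.0420), with group means of 335 ± 72.6 (SD, n = 4) and 191 ± 27.8 (SD, n = 5) and a ratio of 1.76. Phlda1 (ENSMUSG00000020205, chr10:111342147-111344506), a pleckstrin homology protein induced through ERK, had 416, 339.8, 420.3 and 350.0 in the mutant and 252, 273, 253, 269 and 291 in the control libraries. Again the groups did not overlap, and replicates 2 and 4 were the lower mutant libraries. Phlda1 rose by 0.50 on the log2 scale (SE 0.11, limma adjusted p = 0.0333), with group means of 381 ± 42.5 (SD, n = 4) and 268 ± 16.1 (SD, n = 5). Pim1, a survival kinase, had 28.1, 20.9, 30.9 and 36.9 in the mutant and 39.7, 58.0, 32.9, 53.2 and 33.0 in the control libraries, with overlapping groups and a log2 fold change of -0.54 (SE 0.28, limma adjusted p = 0.334). Sik1, Rgs2 and Arl4d had log2 fold changes of 0.25, -0.06 and -0.10, and none of the 3 passed in limma.

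None of the 6 growth arrest and immediate early response proteins passed (limma; 2 had an unadjusted p under 0.05). Those 2 were Ier5, a regulator of the heat shock factor HSF1, and Btg2, an antiproliferative cofactor of mRNA deadenylation. Ier5 had 1229.8, 942, 1091 and 1125 in the mutant libraries and 847, 636, 889, 946 and 791 in the controls, so that a single mutant library, replicate 2, fell below the highest control. Its log2 fold change was 0.42 (SE 0.13, limma adjusted p = 0.107). For Btg2 the values were 219, 217, 232 and 233 against 305, 257, 288, 283 and 270.2. The groups did not overlap, and Btg2 had a log2 fold change of -0.32 (SE 0.10, limma adjusted p = 0.115). Gadd45b, Gadd45g, Ier2 and Ier3 had log2 fold changes of 0.10, -0.0024, 0.06 and -0.39.

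The plot of differences by series shows how large the difference of each called member was within the series of library names. Its sign carries no information there, because none of the 7 overlapped between the genotypes. The differences of Nr4a2 were close to each other, -0.43 (series A), -0.55 (B) and -0.48 (C) on the log2 scale. Those of Arc were 1.06, 0.74 and 0.36, and those of Inhba -0.81, -1.04 and -1.54. Series C, with 1 library per genotype, held the smallest difference of Arc, Nptx2 and Phlda1 and the largest of Inhba and Fos. Npas4 changed sign, with 0.25, 0.27 and -1.02 in that order. Egr1 differed by 0.73, -0.04 and 0.09, so that its positive value rested on series A. Single libraries carried several calls. Leaving out Nestin;BrafKE/+ replicate 1 kept 2 members called (Nr4a2 and Inhba), and leaving out Braf+/+ replicate 4 kept 1 (Nr4a2). These were the only mutant library of series A and the only control of series B, so either fit stops comparing the genotypes in that series. Dropping Nestin;BrafKE/+ replicate 3 kept 3 calls, and dropping Braf+/+ replicate 3 kept 4. By choroid plexus level Braf+/+ replicate 4 came second to Braf+/+ replicate 2. With replicate 2 of the controls left out, Arc, Nptx2, Inhba and Nr4a2 still passed, while Fos, Trib1 and Phlda1 failed. With 1 variance prior for all genes in place of a mean-variance trend, Nr4a2 alone passed of the 7.

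**Figure D3:**
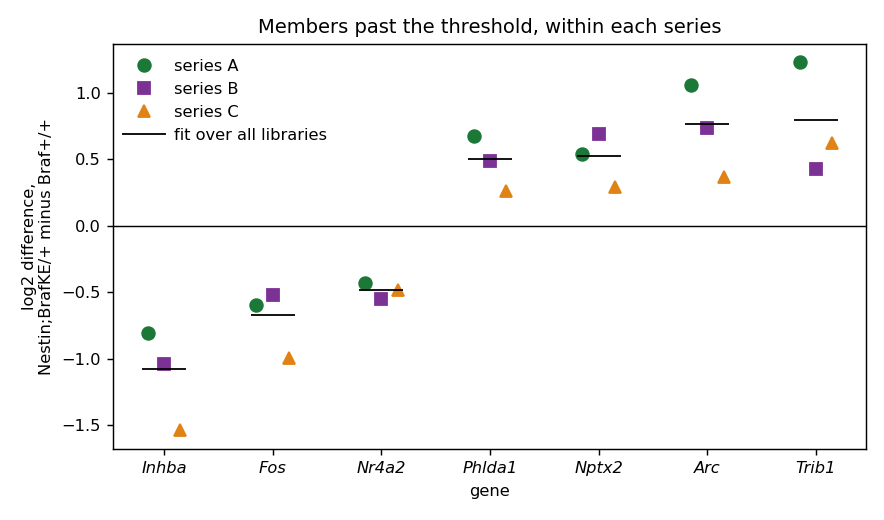
Log2 difference, Nestin;BrafKE/+ minus Braf+/+ (y axis), of the 7 called members within series A (4 libraries), B (3 libraries) and C (2 libraries); the horizontal line is the fit over all 9 libraries. Inhba lies between -1.54 and -0.81 and Trib1 between 0.43 and 1.23, while the points of Nr4a2 are close together; the sign of each gene follows from groups that do not overlap.

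Single calls failed or held as follows, each with the adjusted p of limma without the library named. Arc failed without Nestin;BrafKE/+ replicate 1 (0.0742) or Braf+/+ replicate 4 (0.0525), and Inhba without Braf+/+ replicate 4 (0.0662). Nptx2 failed without Nestin;BrafKE/+ replicate 1 (0.122), Nestin;BrafKE/+ replicate 3 (0.0590) or Braf+/+ replicate 4 (0.128). Phlda1 failed without Nestin;BrafKE/+ replicate 1 (0.20) or 3 (0.0872) or without Braf+/+ replicates 1 to 4 (0.0546 to 0.132). Trib1 held without Nestin;BrafKE/+ replicate 2 (0.0178) and failed without any other library (0.0600 to 0.246).

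The members were then related to each other within libraries, to see which of them rise and fall together. Since Fos did not overlap between the genotypes, a correlation over all 9 libraries would restate the genotype difference, and each genotype alone has under 6 libraries. Pearson's r was therefore taken on the residuals of log2 values over 9 libraries after genotype and series were removed, which leaves 5 degrees of freedom, and it is given as a description without a p. The fit has a single genotype difference for all series. Where that difference is unequal between series, the inequality stays in the residuals, beside the variation between animals of a genotype and series. Genes of a library share its animal, its dissection and its scaling. Of the 666 pairs of members, 40 (6.01%) had a residual r of at least 0.8, against 3.09% of all pairs of genes tested. The blocks below were read from the matrix of residual correlations after their values were seen.

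A first block, without a sharp border, joined Egr1, Egr2, Trib1, Sik1, Rgs2, Phlda1, Klf6 and Homer1. Residual r was only 0.39 for Homer1 and Phlda1 and 0.62 for Klf6 and Phlda1, while Homer1 had 0.89 with Nr4a1, outside the block. Among the closest pairs, it was 0.95 for Egr1 and Trib1 and 0.93 for Egr1 and Egr2. It was 0.95 for the kinase Sik1 and the G protein regulator Rgs2, and 0.91 for Rgs2 and Phlda1. The genotype difference of every gene of the block was highest in series A, and for all but Phlda1 it was lowest in series B. This shared pattern enters their residual r. These genes also shared an order in the mutant libraries. Egr1, Egr2, Trib1, Sik1, Rgs2 and Phlda1 were lowest in Nestin;BrafKE/+ replicate 2, and the highest value of each was in replicate 1 or replicate 3. Sik1 had 267, 176, 251 and 225 in the mutant libraries and 168 to 222 in the controls, and Rgs2 had 723, 560.3, 691 and 615 in the mutant and 629.9, 680.1, 633, 722 and 706 in the control libraries. Gadd45b, a regulator of DNA demethylation and stress kinases, ran the other way, with residual r of -0.98 with Sik1, -0.96 with Egr2 and -0.96 with Rgs2. Its values were 153, 262, 166 and 195 in the mutant and 201, 181, 189, 147 and 172 in the control libraries, highest in Nestin;BrafKE/+ replicate 2 where the block was lowest.

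A second block held Npas4, Fosb, Junb, Ier2 and Ptgs2, without a sharp border. Residual r was 0.94 for Fosb and Junb, 0.90 for Npas4 and Ier2, 0.89 for Fosb and Npas4, and 0.92 for Ptgs2 and Ier2. In these genes Braf+/+ replicates 1 and 5 were the highest controls, as in Ptgs2 with 595, 414, 412, 510.2 and 588 and Ier2 with 97.4, 71.0, 66.7, 83.4 and 101, and Nestin;BrafKE/+ replicate 4 was the lowest mutant library. Gadd45g had a residual r of 0.55 to 0.79 with these 5 genes and Arc one of 0.55 to 0.74, and Arc also had 0.80 with Egr1 of the first block. Of the 36 other members, 4 (11.1%) had a residual r of at least 0.8 with Npas4, against 2.04% of all genes, and 1 had a residual r of at most -0.8, Klf4 (-0.88), against 2.01%. The highest residual r of any pair was 0.98, for Nr4a1 and Ier5, whose values both peaked in Nestin;BrafKE/+ replicate 1 and were lowest in Braf+/+ replicate 2. With any single library left out of the residuals it stayed between 0.98 and 1.00. The residuals were not fitted again without that library, so this range may overstate how stable the value is. Both genes overlap predicted gene models on their own strand.

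Fos belonged to neither block. Residual r with Fos was at least 0.8 for 3 of 36 members, against 2.84% of all genes, and these were Inhba (0.86), Nptx2 (0.84) and Jun (0.80). It was at most -0.8 for 1 member, Pim1 (-0.96), against 3.09% of all genes. Fos and Nptx2 thus varied in the same direction after genotype and series were removed, while Fos was lower and Nptx2 higher in the mutant libraries. With Fosb, its closest relative among the members, Fos had a residual r of 0.58. Arc paired with Gadd45g (0.90), whose log2 fold change between the genotypes was -0.0024.

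**Figure D4:**
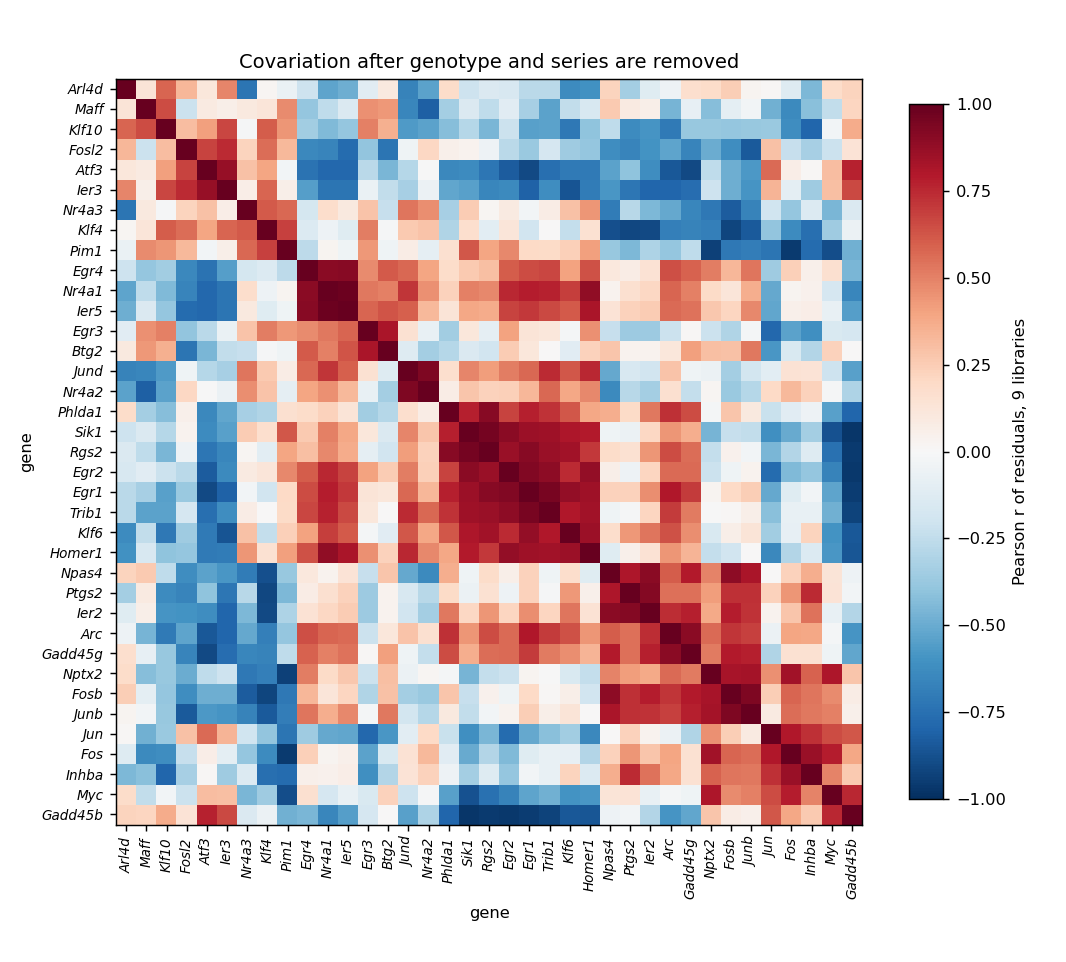
Pearson's r of the residuals of log2 values after genotype and series were removed, for each pair of the 37 members over 9 libraries (colour scale from -1 to 1; genes on both axes ordered by similarity). A red square near the middle holds the Egr1, Egr2, Trib1, Sik1, Rgs2 and Phlda1 block, which is blue against Gadd45b, and a second one runs from Npas4 to Junb and also takes in Arc, Gadd45g and Nptx2.

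The factors that switch immediate early genes on were examined from a list of 22 (SRF and its cofactors, CREB and its coactivators, MEF2 factors and the RSK and MSK kinases). In that list 1 gene of 22 (4.55%) passed, in the lower direction, which is near the 2.88% of all genes tested. Of the 22, 15 had a negative log2 fold change, as did 8083 of all 16196 genes. The genotypes did not overlap for 8 of the 22, with 1 above and 7 below the controls. Over all genes tested, 15.7% did not overlap (7.62% above and 8.13% below). An unadjusted p under 0.05 in limma was found for 9 of the 22 and for 18.5% of all genes. Sums of the list ran from 29152.5 to 30261 in the mutant and from 31532.5 to 33157 in the control libraries. The list was chosen with earlier results of these data known. Creb1, the factor that binds cAMP response elements, had 984, 924, 973 and 869 in the mutant libraries and 1153, 1277, 1194, 1199 and 1324 in the controls. No mutant library reached the lowest control. Creb1 fell by 0.39 on the log2 scale (SE 0.07, limma adjusted p = 0.0176), with group means of 938 ± 52.5 (SD, n = 4) and 1229 ± 69.5 (SD, n = 5). Leaving out Nestin;BrafKE/+ replicate 1 or 4 ended the call (limma adjusted p = 0.0676 and 0.0523), as did leaving out Braf+/+ replicate 4 or 5 (0.0746 and 0.0548). Crem, a relative of Creb1, had a larger absolute change but did not pass, with -0.42 (limma adjusted p = 0.0690), and smaller changes that did not pass were those of Mef2c with -0.36 (0.131), Rps6ka5, the kinase MSK1, with -0.28 (0.0862) and Ep300, a coactivator, with 0.26 (0.0893).

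Beyond the members, 30 further genes that respond to activity were listed, and 4 of them were higher and 1 lower (16.7% called, against 2.88% of all genes tested, 1.52% higher and 1.36% lower). This list too was chosen with earlier results of these data known, so its share is not a test. Vgf, a secreted precursor of neuropeptides, ran from 4548 to 5553 in the mutant and from 2439 to 3237 in the control libraries. It rose by 0.82 on the log2 scale (SE 0.09, limma adjusted p = 0.00261) and passed without each library in turn. Rasd1, a small GTPase induced by dexamethasone, rose by 0.59 (SE 0.11, limma adjusted p = 0.0177), and Dusp5, a nuclear phosphatase of ERK, by 0.49 (SE 0.09, limma adjusted p = 0.0172). Rasd1 failed without Nestin;BrafKE/+ replicate 1 (0.0742) or Braf+/+ replicate 4 (0.124), and Dusp5 without Nestin;BrafKE/+ replicate 1 (0.0594) or 3 (0.0532) or Braf+/+ replicate 4 (0.105). Bhlhe40, a repressor of the clock, rose by 0.28 (SE 0.06, limma adjusted p = 0.0472), a call that failed without any library but Nestin;BrafKE/+ replicate 2. Pcsk1, the convertase that cleaves prohormones, was lower, with 365 to 467 in the mutant and 577 to 721 in the control libraries, and fell by 0.59 on the log2 scale (SE 0.11, limma adjusted p = 0.0202). Its call failed without Nestin;BrafKE/+ replicate 1 (0.0676) or 4 (0.0552) and without Braf+/+ replicate 4 (0.142) or 5 (0.0563). Bdnf, the neurotrophin that activity induces, had a log2 fold change of 0.11 (limma adjusted p = 0.518).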

How the data were processed

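Stranded mRNA libraries were made from the hippocampus of 4 Nestin;BrafKE/+ and 5 Braf+/+ mice. The authors used Trim Galore for trimming, STAR for alignment to GRCm39 and Salmon for quantification, and they corrected for unnamed batches before scaling with DESeq2. The deposited table holds 1 signal value per gene and library in normalised counts, made by the authors. All values were whole multiples of a step of 0.993 to 1.004 (tolerance 0.05 of a step), but mt-Co1 had the same whole number, 491938, in each of the 9 libraries, so these are not sequenced reads. Count models were therefore not used, depth is unknown, and precision rests on the spread between libraries.

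Genes with a mean of at least 10 were fitted with limma 3.58.1 in R 4.3.3 on log2(value + 1), with genotype and library series as terms and a mean-variance trend. The two-sided p-values were adjusted over 16196 genes (Benjamini-Hochberg), with a threshold of 0.05, and fold changes on this scale understate those of low genes. Groups came from the labels. Members and lists were chosen with earlier results of these data known. Named in full are members past the threshold, 8 usual activity markers and the 3 highest and 3 lowest fold changes, and from other lists called genes and up to 4 more by size. Fosl2, Nr4a3, Btg2, Ier5, Myc and the genes of the correlation blocks were named after their values were seen. Exact permutation of the genotypes used 126 arrangements, or 24 within series. Steps were tested on simulated data. By Gencode vM39, 3 members (Homer1, Ier5 and Nr4a1) overlap another gene on the same strand and 21 on the opposite strand. Python 3.11.15, pandas 2.3.3 and matplotlib 3.10.9 drew the figures. Alternatives were other pseudocounts, filters, scalings, covariates, weights and variance models, and leaving out each library.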

Additional observations from a re-analysis of the deposited data

Results flagged for a closer look

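In 3 of 74 groups of values (37 members in 2 genotypes), 1 library stood far from the others by Dixon's criterion, about as many as the 1 in 20 that chance gives. Egr2 in Braf+/+ replicate 4 had 36.2 normalised counts, above 20.0 to 23.0 in the other controls. Myc in Nestin;BrafKE/+ replicate 2 had 107, above 83.3 to 86.9 in the other mutant libraries. Arl4d, a small GTPase of the ARF family, had 158 in Braf+/+ replicate 4, below 173 to 179 in the other controls.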

How the results depend on the processing

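The number of members called was 7, and it was 10 without the series term, 8 with a minimum mean of 50 or robust eBayes, 3 with 4 name prefixes in place of the 3 series, 1 without the mean-variance trend, and 1 to 7 when single libraries were left out. For upstream regulators the count of 1 became 8 without the series term, 0 without the trend (limma; 9 had an unadjusted p under 0.05 in the fit as reported) and 0 to 1 without single libraries. For other activity-regulated genes the count of 5 became 8 without the series term, 2 with the prefixes, 0 without the trend (limma; 10 had an unadjusted p under 0.05 in the fit as reported) and 1 to 5 without single libraries, lowest without Nestin;BrafKE/+ replicate 1 or Braf+/+ replicate 4. Over all genes the count of 466 became 2260 without the series term, 165 with the prefixes, 258 with array quality weights, 72 without the trend and 42 to 369 without single libraries, lowest without Nestin;BrafKE/+ replicate 1. The median log2 fold change of the members ran from -0.030 to 0.065 without single libraries. The number of members with a pooled correlation with Fos past an adjusted exact permutation p of 0.05 was 2. It was 1 by Spearman's rho and 1 to 3 without single libraries. The pooled value holds the genotype difference of Fos and was not read as covariation. Each fit that leaves a library out has fewer libraries. Where that library is its genotype's only member of a series, the fit also loses that series from the genotype comparison. The cause of these shifts was otherwise not tested.

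Replicate numbers are shared by the genotypes in the labels, but same-numbered libraries did not deviate together, with correlations of -0.39, -0.08, 0.07 and 0.41 for numbers 1 to 4. With the replicate block in place of the series, 10 members, 3 upstream regulators, 8 other activity-regulated genes and 1405 genes were called. The log2 fold changes that reversed under the block, all uncalled, were 0.010 for Fosb, -0.024 for Egr3, 0.043 for Npas4 and 0.022 for Gadd45g.

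Other reversals were in members that passed in no setting. With the name prefixes, Junb was at -0.0026, Atf3 at 0.019, Npas4 at 0.0078 and Klf6 at -0.0039. With array quality weights, Jund was at 0.0053, Klf4 at 0.0099, Homer1 at 0.0049 and Gadd45g at 0.0046, which was also at 0.00074 after quantile normalisation. Without single libraries, the log2 fold change ran from -0.16 to 0.11 for Fosb, -0.03 to 0.092 for Junb, -0.090 to 0.076 for Jund, -0.45 to 0.42 for Atf3, -0.081 to 0.067 for Egr3, -0.027 to 0.22 for Nr4a1, -0.28 to 0.26 for Npas4, -0.14 to 0.078 for Klf4, -0.14 to 0.16 for Klf6, -0.076 to 0.39 for Klf10, -0.13 to 0.099 for Homer1, -0.18 to 0.23 for Ptgs2, -0.21 to 0.016 for Rgs2, -0.12 to 0.37 for Gadd45b, -0.079 to 0.065 for Gadd45g, -0.19 to 0.26 for Ier2 and -0.65 to 0.052 for Ier3. The planned edgeR and DESeq2 fits on whole numbers were not run, because those numbers are not reads. Values behind a transcript of low level, such as Maff and Atf3, have few counts, and the depth that limits them is unknown.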

Other observations

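Outside the lists, the 5 genes with the pattern over 9 libraries most like that of Fos, by Pearson's r and with a mean of at least 50, were Dclk3, Rc3h2, Htr1a, Dnaaf4 and Vstm2b. Because Fos did not overlap between the genotypes, the pooled value is not given, and after genotype and series were removed r with Fos was 0.95 for Dclk3, 0.93 for Rc3h2, 0.92 for Htr1a, 0.91 for Dnaaf4 and 0.92 for Vstm2b. These genes were chosen for this likeness out of 16195, and no test belongs to it. Dclk3, a kinase of the doublecortin family, had a log2 fold change of -0.91 (limma adjusted p = 0.00534), and Htr1a, the serotonin 1A receptor, one of -0.34 (limma adjusted p = 0.0319). Rc3h2, a relative of roquin that promotes mRNA decay, had -0.27 (limma adjusted p = 0.0490), while Dnaaf4 (-0.32, limma adjusted p = 0.301) and Vstm2b (-0.25, limma adjusted p = 0.0952) did not pass.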
